A study of Mus musculus with 10 samples.

Results

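The genes described here belong to families of enzymes that add methyl groups to histones or take them off. Some members have other proteins as substrates. Members were chosen by gene symbol: lysine methyltransferases of the KMT, SETD, SETDB, SUV39H, SUV420H, EHMT, NSD (Whsc1) and SMYD families, DOT1L, arginine methyltransferases of the PRMT family with CARM1, and demethylases of the KDM family. The deposited tables hold 45706 genes, and 60 symbols matched. Kdm2b, Kdm5c, Kdm5d and Kdm6a were left out by name and 2 symbols, Kdm4dl and Kdm6bos, had no protein-coding transcript, which left 54 genes with 374 transcripts. Histone methyltransferases transfer the methyl group of S-adenosylmethionine to lysine or arginine, mostly on histone tails. LSD demethylases remove it with flavin, and the jumonji (JmjC) demethylases remove it with iron and 2-oxoglutarate. Methylation of H3K4 and H3K36 is found at active genes and trimethylation of H3K9 and H4K20 in silent chromatin. In reprogramming of fibroblasts, H3K9 methyltransferases and DOT1L are known as barriers.

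Polyadenylated RNA was sequenced from mouse cells at 5 stages, with 2 libraries per stage. The fibroblast libraries came from uninduced embryonic fibroblasts (MEF) of a C57BL/6 and 129 cross, kept in fibroblast medium. These fibroblasts carry a doxycycline-inducible Oct4, Klf4, Sox2 and Myc (OKSM) cassette at Col1a1 and the M2rtTA transactivator at Rosa26. Day 3, day 6 and day 9 cells were grown in stem cell medium with doxycycline at 1 µg/ml and ascorbic acid at 50 µg/ml. Day 3 cells were the whole culture, while day 6 and day 9 cells were sorted for the surface marker SSEA1. Stem cell libraries (ESC) came from V6.5, an established embryonic stem cell line of the same type of cross, grown with LIF on irradiated feeder cells. V6.5 is 1 line, the ESC medium differs from that of MEFs, and the sources used here do not give the number of embryos behind each MEF or day library. The step from MEF to day 3 joins induction, medium, ascorbic acid and, by the sex-linked genes given below, a change of donor. The step from day 3 to day 6 joins time and sorting. Nothing in the labels ties each library to a separate animal, so p-values may measure technical spread only.

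Libraries held 29585876 to 38275024 estimated reads. The 54 genes took 0.307% to 0.311% of the reads in MEFs, 0.399% and 0.41% at day 3, 0.473% to 0.488% at days 6 and 9, and 0.49% and 0.506% in ESCs. Levels of a gene are given as counts scaled to sequencing depth (CPM) on the TMM scale of edgeR. The 10 fibroblast markers summed to 51529 and 50034 CPM in MEFs, 123 and 132 CPM at day 9 and 4491 and 4632 CPM in ESCs, which were grown on feeders. The 10 pluripotency markers summed to 2.03 and 2.47 CPM in MEFs, 445 and 451 CPM at day 9 and 4186 and 4271 CPM in ESCs. The 6 epithelial markers peaked at day 9, at 1302 and 1357 CPM. The Y-linked gene Ddx3y stood at 86.4 and 90.6 CPM in MEFs and 26.1 and 26.8 CPM in ESCs but at no more than 0.18 CPM in the 6 day libraries. The X-inactivation transcript Xist ran the other way, at 0.74 and 0.79 CPM in MEFs, 9.00 and 11.3 CPM in ESCs and 930 to 1317 CPM in the day libraries. By these genes the day cells were female and the MEFs male, so they came from different embryos, although the labels do not state it. In every comparison of a day with MEF or ESC, donor, these sex-linked differences and the stage cannot be told apart. In bulk RNA, fewer cells of a type and less RNA per cell cannot be told apart either.

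Most of these enzymes were expressed at every stage and shifted by less than 2-fold at each step. A gene was called when its adjusted p was under 0.05 (edgeR quasi-likelihood test, Benjamini-Hochberg over 20165 genes) and its change at least 2-fold, and rose or fell refers to such calls. Fold changes are given as log2 values ± SE. Of the 54 members, 53 passed the filter on low counts, and Kdm4d, with 1 to 9 reads per library, did not. From MEF to day 3, Kdm7a, Suv39h2 and Suv420h2 rose and Prmt2 fell, 4 of 53 members or 7.55%, against 29.1% of all genes tested. From day 3 to day 6, Smyd1 rose and Prmt2 fell, 3.77% of members against 19.5% of genes. From day 6 to day 9 none was called, against 7.87% of genes. At that step 21 members had an unadjusted p under 0.05, and DESeq2 and limma at the same thresholds also called 0.

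The step from day 9 to ESC held more calls, with 5 members higher and 6 lower, 20.8% of members against 32.9% of genes (18.6% higher, 14.3% lower). Across the whole distance from MEF to ESC, 16 rose and 4 fell, 37.7% of members against 46.1% of genes. Of all genes tested, 25.5% rose and 20.6% fell in that comparison. The counts per group of enzymes given below were not tested against such shares. Between MEF and day 9, 8 members rose (Suv39h2, Setdb1, Suv420h2, Kmt2b, Smyd1, Setd6, Kdm7a and Setd4) and Prmt2 fell, 17.0% of members against 43.9% of genes. The median absolute log2 change of the members was 0.31 from MEF to day 3, against 0.63 over all genes tested, and 0.72 from MEF to ESC, against 0.98. Their median signed change from MEF to ESC was 0.32, against 0.10 over all genes. With the adjusted p alone and no fold minimum, 38 members (71.7%) differed between MEF and day 3, against 64.9% of genes tested. The same count was 38 (71.7%) between day 3 and day 6, against 56.5%, and 19 (35.8%) between day 6 and day 9, against 34.6%. It was 41 (77.4%) between day 9 and ESC, against 69.6%, and 46 (86.8%) between MEF and ESC, against 76.6%. For 28 members (52.8%) the largest of the 4 successive steps was the last, from day 9 to ESC, as it was for 35.4% of all genes tested. By group means, 24 members peaked in ESCs, 10 on day 9, 9 on day 6, 4 on day 3 and 6 before induction, in MEFs. By the same means, 23 were lowest in MEFs, 9 on day 3, 1 on day 6, 4 on day 9 and 16 in ESCs. Such counts were not made over all genes tested, so they cannot be set against a background.

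**Figure D1:**
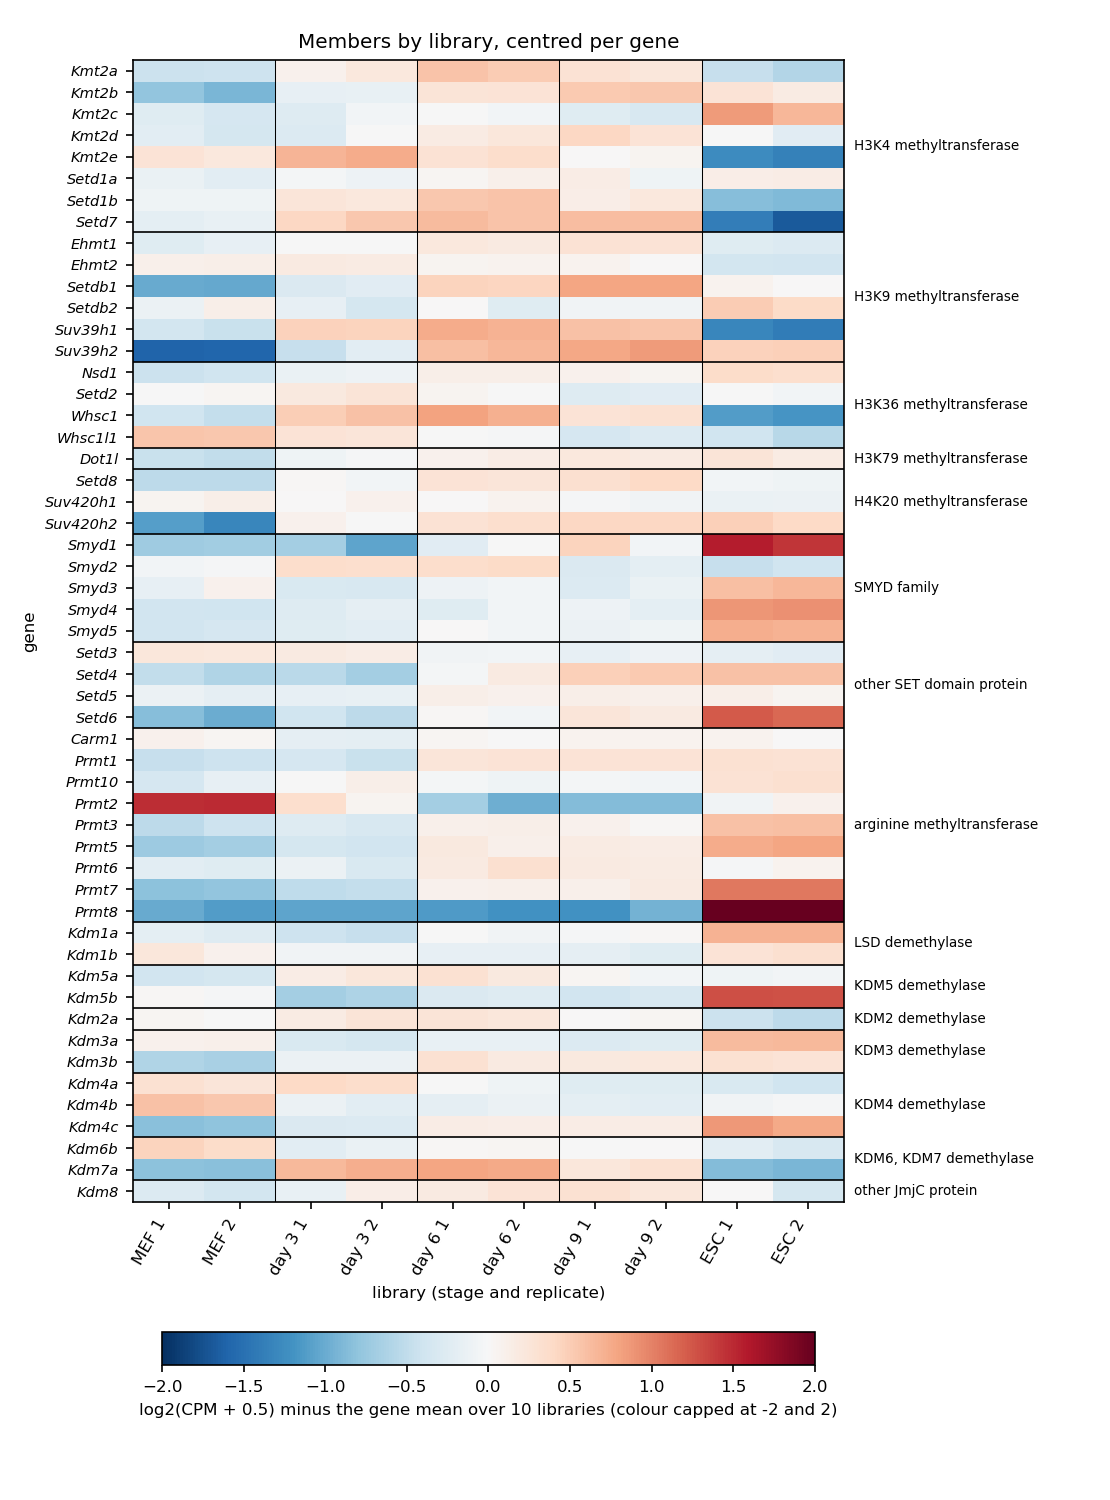
Level of each tested member (rows, grouped by role) in each of the 10 libraries (columns), as log2(CPM + 0.5) minus the mean of the gene over all libraries. Red is above and blue below that mean, with the colour capped at -2 and 2. Replicate libraries share their colours in nearly every row, the blocks for H3K4 and H3K9 methyltransferases are mostly red at days 6 and 9, and most arginine methyltransferases are reddest in ESCs.

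The 6 H3K9 methyltransferases parted ways: Setdb1 and Suv39h2 rose during reprogramming and stayed above MEF in ESCs, Suv39h1 was highest at the days of induction and fell to its lowest level in ESCs, and the EHMT pair changed by less than 2-fold. Summed over the 6 genes, their level went from 396 and 400.1 CPM in MEFs to 643 and 635 CPM at day 9 and back to 415 and 405 CPM in ESCs. Setdb1, at chr3:95323525-95357202 (GRCm38), encodes the enzyme that TRIM28 brings to retroviral elements to trimethylate H3K9. It stood at 61.1 and 60.5 CPM in MEFs, 101 and 106 on day 3, 169 and 167 on day 6, 214 and 213 on day 9 and 129 and 124 in ESCs. Each day lay above the stage before it in both libraries, and ESC lay between day 3 and day 6. The change from MEF to day 9 was 1.81 ± 0.04, adjusted p = 5.72e-15, and from MEF to ESC 1.06 ± 0.04, adjusted p = 2.77e-12. The latter was 0.98 under DESeq2, just short of 2-fold. Of the 50-base windows of the main Setdb1 transcript, 6.65% occur in other genes. Among those genes Gm4349 had the most matches, and it held 1.4% as many reads as Setdb1.

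Suv39h1 and Suv39h2 both trimethylate H3K9 in the heterochromatin around centromeres. Suv39h2, on chromosome 2 (chr2:3455815-3475031), stood at 6.02 and 6.10 CPM in MEFs, 13.8 and 16.6 on day 3, 29.6 and 30.9 on day 6, 33.1 and 35.2 on day 9 and 26.8 and 27.1 in ESCs. It was at its lowest in MEFs, with no overlap between MEF and any other stage. It rose from MEF to day 3 (1.32 ± 0.10, adjusted p = 1.86e-08) and from MEF to day 9 (2.50 ± 0.09, adjusted p = 2.55e-12), the largest day 9 change among the members. The day 3 change was 0.85, short of 2-fold, with limma on log2(TPM + 1), where TPM is the level scaled to depth and transcript length. It was also higher in ESCs than in MEFs (2.15 ± 0.09, adjusted p = 1.82e-11). Suv39h1, the only X-linked member (chrX:8061171-8074760), stood at 39.1 and 36.9 CPM in MEFs, 69.6 and 68.7 on day 3, 84.5 and 81.8 on day 6, 75.8 and 74.4 on day 9 and 20.1 and 18.8 in ESCs. The ESC libraries were the lowest, MEF came next, and every day lay above MEF with the highest values at day 6. From day 9 to ESC it fell (-1.95 ± 0.05, adjusted p = 1.54e-13), and from MEF to ESC its change was -0.97 ± 0.05, adjusted p = 4.75e-10, short of 2-fold. The day libraries of Suv39h1 are those with Xist and without Y-linked RNA, and the part of this in its level was not tested. In addition, 23.2% of the 50-base windows of its main transcript lie antisense to another annotated transcript, and whether strand was used in quantification is not given in the sources used here.

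Ehmt1 and Ehmt2 encode GLP and G9a, which act as a pair to mono- and dimethylate H3K9 in euchromatin. Ehmt2 stood at 199.9 and 200.4 CPM in MEFs, 209 and 209 on day 3, 192 and 194 on day 6, 194 and 187 on day 9 and 144 and 143 in ESCs. It lay between 187 and 209 CPM up to day 9 and lower in both ESC libraries, by less than 2-fold (-0.41 ± 0.03, adjusted p = 3.64e-08). Ehmt1 stood at 81.1 and 85.7 CPM in MEFs, 95.2 and 95.1 on day 3, 111 and 109 on day 6, 117 and 117 on day 9 and 80.7 and 79.1 in ESCs. Its day 9 libraries were the highest, and the ESC libraries lay just below those of MEFs. Its small change from MEF to day 3 (0.19 ± 0.04) turned negative with limma on TPM. Setdb2, a relative of Setdb1, stayed between 7.39 and 13.8 CPM and was not called at any step.

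Of the 8 genes grouped as H3K4 methyltransferases, Kmt2e among them, 3 fell from day 9 to ESC and 1 rose. At that step 14.3% of all genes tested fell and 18.6% rose. From MEF to ESC, 2 rose and 2 fell, while 25.5% of all genes tested rose and 20.6% fell. Their summed level was 554 and 534 CPM in MEFs, 831 and 831 CPM at day 6 and 557 and 511 CPM in ESCs. Setd7, at chr3:51515319-51560879, encodes a monomethyltransferase that also modifies proteins other than histones. It stood at 79.8 and 82.2 CPM in MEFs, 122 and 133 on day 3, 143 and 136 on day 6, 140.2 and 140.3 on day 9 and 34.7 and 28.3 in ESCs. The ESC libraries were far below all others, and the days lay above MEF without overlap. It fell from day 9 to ESC (-2.16 ± 0.07, adjusted p = 1.95e-12), the largest fall of any member at that step, and was lower in ESCs than in MEFs (-1.37 ± 0.07, adjusted p = 2.72e-10). On log2(TPM + 1) with limma the latter was -0.86, short of 2-fold.

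Kmt2e encodes MLL5, a SET and PHD finger protein that binds methylated H3K4 and for which methyltransferase activity is doubtful. It stood at 106 and 101 CPM in MEFs, 141 and 147 on day 3, 108 and 112 on day 6, 88.1 and 90.8 on day 9 and 36.5 and 34.1 in ESCs. After a high point at day 3 each later stage lay lower, with no overlap between ESC and any other stage. It fell from day 9 to ESC (-1.34 ± 0.05, adjusted p = 5.27e-12) and from MEF to ESC (-1.56 ± 0.05, adjusted p = 5.08e-13), the former -0.92 with limma on log2(TPM + 1). Antisense annotation covers 12.8% of its windows. Setd1b, a catalytic subunit of the SET1 COMPASS complex that lays down H3K4 trimethylation at promoters, stood at 43.7 and 44.0 CPM in MEFs, 54.9 and 53.9 on day 3, 67.7 and 69.4 on day 6, 51.2 and 54.1 on day 9 and 25.7 and 25.2 in ESCs. It peaked at day 6, and it fell from day 9 to ESC (-1.05 ± 0.05, adjusted p = 8.41e-11), although DESeq2 put that change at -0.98 and limma on log2(TPM + 1) at -0.57. The other SET1 enzyme, Setd1a, stayed between 62.2 and 79.5 CPM, with 59.2% of its windows shared with other genes, Gm49388 having the most matches.

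Among the MLL enzymes, Kmt2b (MLL2, which methylates bivalent promoters in stem cells) stood at 65.1 and 59.3 CPM in MEFs, 100.4 and 101 on day 3, 134 and 136 on day 6, 161 and 164 on day 9 and 135 and 127 in ESCs. All later libraries lay above both MEF libraries. It rose from MEF to day 9 (1.39 ± 0.05, adjusted p = 1.31e-12) and to ESC (1.08 ± 0.05, adjusted p = 2.58e-11). Kmt2c (MLL3, an H3K4 monomethyltransferase of enhancers) stood at 36.1 and 33.8 CPM in MEFs, 35.7 and 41.1 on day 3, 42.8 and 41.2 on day 6, 36.3 and 34.3 on day 9 and 77.8 and 68.5 in ESCs. Its ESC libraries lay above all others. It rose from day 9 to ESC (1.05 ± 0.07, adjusted p = 9.22e-09) and from MEF to ESC (1.07 ± 0.07, adjusted p = 5.52e-09), but without ESC replicate 1 the changes were 0.96 and 0.97, short of 2-fold. Limma on log2(TPM + 1) gave 0.76 and 0.99, and DESeq2 0.99 for the latter. Kmt2d, a relative of Kmt2c that also acts at enhancers, and Kmt2a (MLL1) were not called in any of the 5 comparisons. Kmt2a stood at 81.7 and 82.3 CPM in MEFs, 164 and 157 CPM at day 6 and 79.6 and 73.5 CPM in ESCs.

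**Figure D2:**
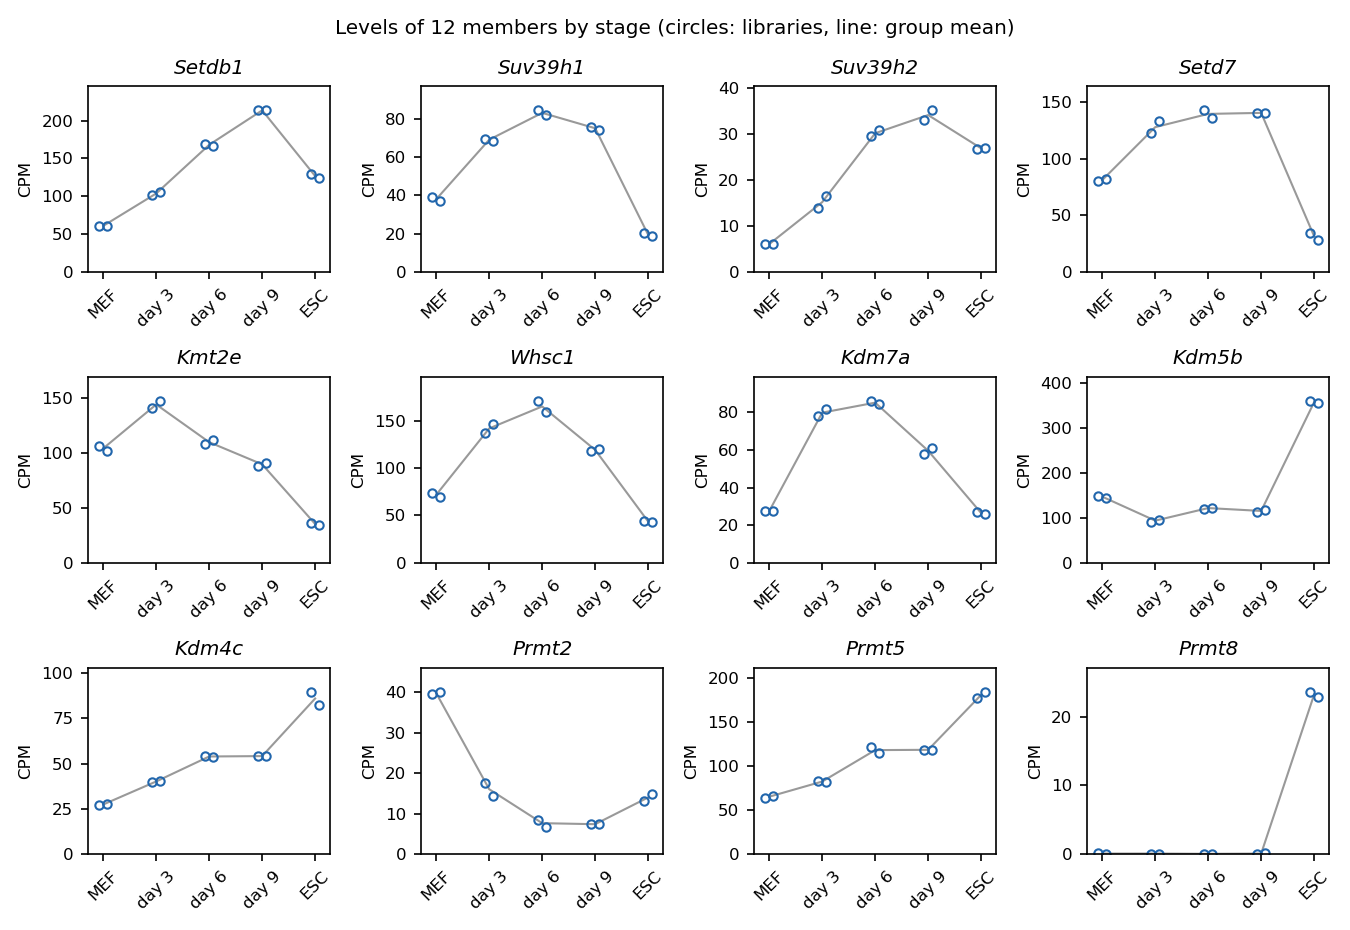
CPM of 12 members in each library (circles) over the 5 stages, with a line through the group means and an axis from 0 in each panel. Setdb1 reaches 214 CPM at day 9, Suv39h1, Whsc1 and Kdm7a peak at day 6, Kdm5b reaches 360 CPM in ESCs, Prmt2 falls from 40.1 CPM in MEFs, and Prmt8 is near 0 before ESC.

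H3K36 methyltransferases mark transcribed gene bodies and intergenic regions, and of the 4, Whsc1 and Whsc1l1 were called. Whsc1 (current symbol Nsd2, which dimethylates H3K36) stood at 73.7 and 69.9 CPM in MEFs, 137 and 147 on day 3, 170.4 and 159 on day 6, 118 and 120.2 on day 9 and 44.4 and 42.9 in ESCs. MEF and ESC libraries were low, and all day libraries lay above both. It fell from day 9 to ESC (-1.45 ± 0.05, adjusted p = 3.28e-12), a change of -0.89 with limma on log2(TPM + 1), short of 2-fold, while the change from MEF to day 3 was 0.98 ± 0.05, adjusted p = 1.56e-10, just short of 2-fold. Whsc1l1 (Nsd3), its relative, stood at 85.4 and 84.2 CPM in MEFs, 70.0 and 68.9 on day 3, 57.4 and 56.7 on day 6, 46.0 and 47.8 on day 9 and 43.6 and 39.1 in ESCs. Its level was lower at each stage than at the stage before, by group means. It was lower in ESCs than in MEFs (-1.04 ± 0.05, adjusted p = 8.60e-11), a call that ended without ESC replicate 2 (-0.97), with scaling by library size (-0.70) and with limma on log2(TPM + 1) (-0.83). Nsd1 and Setd2, the trimethylating enzyme that travels with RNA polymerase, were not called. Nsd1 stood at 129 and 133 CPM in MEFs and 226 and 221 CPM in ESCs (0.77 ± 0.03).

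Dot1l, the H3K79 methyltransferase, stood at 64.8 and 62.3 CPM in MEFs, 83.1 and 86.4 on day 3, 94.0 and 97.5 on day 6, 102 and 99.7 on day 9 and 106 and 99.3 in ESCs. Each induced stage and ESC lay above MEF without overlap, yet its change from MEF to ESC (0.69 ± 0.04, adjusted p = 2.29e-09) was under 2-fold.

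Of the 3 H4K20 methyltransferases, Suv420h2 rose and the other two were not called. Setd8 (Kmt5a) monomethylates H4K20, and Suv420h1 (Kmt5b) and Suv420h2 (Kmt5c) add the further methyl groups. Suv420h2 stood at 24.9 and 21.6 CPM in MEFs, 57.6 and 53.8 on day 3, 66.2 and 68.4 on day 6, 72.1 and 72.3 on day 9 and 75.5 and 71.3 in ESCs. It rose from MEF to day 3 (1.27 ± 0.06, adjusted p = 2.84e-10), and all later libraries lay above 50 CPM. Its change from MEF to ESC was 1.67 ± 0.06, adjusted p = 5.48e-12. Setd8 was not called and ranged from 71.8 to 138 CPM, with its highest values at day 9. Suv420h1 was nearly flat at the gene level, between 45.1 and 53.5 CPM, and its small change from MEF to ESC (-0.21 ± 0.05) turned positive with library-size scaling and with limma on TPM.

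Below this flat gene total the estimated transcripts of Suv420h1 shifted. The long transcript Suv420h1-001 (6130 nt, 2649 coding bases, 13 exons) and the short Suv420h1-004 (2975 nt, 1182 coding bases, 10 exons) share their first 1177 coding bases and then part. Coding ends are shown because they separate the forms whose shares changed, read from GENCODE M21 (GRCm38, gene at chr19:3767421-3818303, plus strand). Each line gives shared coding bases in lower case and, in capitals, the bases after the forms part. The long form is shown for its first bases after that point, and the short form to its last coding base before the stop codon.
Suv420h1-001: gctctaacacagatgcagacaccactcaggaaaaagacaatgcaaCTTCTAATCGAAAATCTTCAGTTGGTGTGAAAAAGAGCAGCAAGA
Suv420h1-004: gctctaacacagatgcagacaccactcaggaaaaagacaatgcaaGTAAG
Suv420h1-004 took 4.25% and 5.5% of the estimated reads of the gene in MEFs, 7.63% and 7.07% on day 3, 9.26% and 11.4% on day 6, 13.6% and 12.7% on day 9 and 37.2% and 39.9% in ESCs. The 5 transcripts with 2500 or more coding bases together took 85.7% and 86.9% in MEFs and 49.8% and 48.4% in ESCs. ESC stood apart from all other stages on both measures, and day 9 lay between day 6 and ESC. In CPM the short form went from 2.17 and 2.94 in MEFs to 16.8 and 18.2 in ESCs, and the long forms from 43.8 and 46.5 to 22.4 and 22.0. These are estimates from single reads of 50 nt, given with no test, since 2 libraries against 2 cannot reach an exact permutation p of 0.05.

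**Figure D3:**
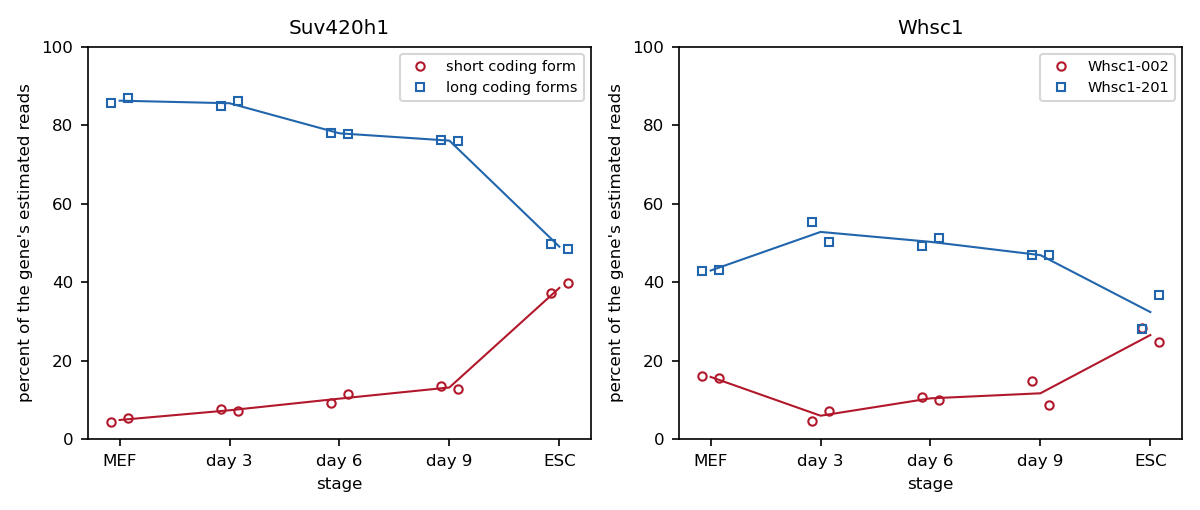
Share of the estimated reads of Suv420h1 (left) and Whsc1 (right) held by the transcripts named in each legend, in percent, for each library (symbols) at each stage, with lines through the group means. The short coding form of Suv420h1 is at 37.2% and 39.9% in ESCs and no higher than 13.6% elsewhere, and the shares of Whsc1-002 and Whsc1-201 draw together in ESCs.

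The other members were also searched for a stable shift in transcripts. Over the members, 12 transcripts of 7 genes moved by at least 15 percentage points between group means with replicates within 10 points, in genes with at least 100 reads in every library. This rule was chosen after the values were seen, and it was not applied to genes outside the members. The genes were Prmt6, Setd1a, Setd8, Smyd3, Suv420h1, Suv420h2 and Whsc1. Whsc1-002 held 16.2% and 15.6% of the reads of Whsc1 in MEFs, 4.71% and 7.21% at day 3 and 28.2% and 24.8% in ESCs, while Whsc1-201 held 42.9% and 43.1%, 55.3% and 50.4%, and 28.0% and 36.8%. For Prmt6, whose transcripts Prmt6-001 and Prmt6-201 encode the same number of coding bases, Prmt6-001 held 54.2% to 56.8% at the days and 76.3% and 73.2% in ESCs.

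Of the 9 SMYD and other SET domain genes, 6 had their highest group mean in ESCs. Of the 5 SMYD genes, Smyd1, Smyd4 and Smyd5 rose from MEF to ESC and none fell, while 25.5% of all genes tested rose and 20.6% fell. Smyd1, a muscle methyltransferase, stood at 0.997 and 1.01 CPM in MEFs, 1.02 and 0.680 on day 3, 1.59 and 1.94 on day 6, 2.83 and 1.87 on day 9 and 6.75 and 6.12 in ESCs. These are low counts, the ESC libraries were the highest and MEF and day 3 the lowest. It rose from day 9 to ESC (1.46 ± 0.23, adjusted p = 6.17e-05). Its rise from day 3 to day 6 (1.04 ± 0.28, adjusted p = 0.00584) was 0.77 without day 3 replicate 2, 0.88 without day 6 replicate 2 and 0.49 with limma on log2(TPM + 1). Smyd4 stood at 8.35 and 8.29 CPM in MEFs, 9.23 and 9.73 on day 3, 9.35 and 10.7 on day 6, 10.3 and 9.65 on day 9 and 20.8 and 21.4 in ESCs, and rose from day 9 to ESC (1.08 ± 0.08, adjusted p = 2.74e-08). With limma on log2(TPM + 1) that change was 0.77 and the one from MEF to ESC 0.92, both short of 2-fold. Smyd5, reported to methylate H4K20, stood at 46.6 and 48.3 CPM in MEFs, 51.8 and 52.4 on day 3, 61.2 and 59.0 on day 6, 56.2 and 57.4 on day 9 and 102 and 98.9 in ESCs, and was higher in ESCs than in MEFs (1.08 ± 0.04, adjusted p = 6.46e-12). For both genes the ESC libraries stood clear of all others, which lay close together.

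Among the SETD proteins outside the histone mark groups, Setd6 and Setd4 rose. Setd6, which methylates the NF-kappaB subunit RelA, stood at 10.1 and 9.12 CPM in MEFs, 14.1 and 12.8 on day 3, 19.0 and 17.9 on day 6, 22.3 and 21.1 on day 9 and 44.3 and 42.1 in ESCs. The libraries were higher at each stage than at the stage before, without overlap, although the small step from day 6 to day 9 had the opposite sign with limma on TPM. Its change from MEF to ESC was 2.17 ± 0.07, adjusted p = 1.76e-12. Setd4 stood at 5.76 and 5.27 CPM in MEFs, 5.52 and 4.97 on day 3, 8.05 and 9.44 on day 6, 11.7 and 12.1 on day 9 and 12.7 and 12.7 in ESCs, with days 9 and ESC above the rest (1.20 ± 0.11, adjusted p = 1.19e-07). Setd3, the actin histidine methyltransferase, and Setd5 were not called. Setd3 ranged from 88.8 to 122 CPM, and 37.6% of its windows are shared with other genes. Among those genes Gm14026 had the most matches, and it held 0.115% as many reads as Setd3.

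Of 9 arginine methyltransferases, Prmt3, Prmt5, Prmt7 and Prmt8 rose from MEF to ESC, Prmt2 fell and 4 were not called. Of all genes tested, 25.5% rose and 20.6% fell between these stages. Their summed level went from 546 and 554 CPM in MEFs to 750.0 and 749 CPM at day 9 and 936 and 933 CPM in ESCs. Promoters of the 4 that rose are shown here because these genes moved in the same direction. The windows run from 250 bases before to 50 bases after the start in RefSeq (GRCm38.p6), on the strand of the gene. Capitals mark matches, on either strand, to GGGNGTGG, the core that KLF factors such as the induced Klf4 bind.
Prmt3, chr7:49778108-49778407, plus strand: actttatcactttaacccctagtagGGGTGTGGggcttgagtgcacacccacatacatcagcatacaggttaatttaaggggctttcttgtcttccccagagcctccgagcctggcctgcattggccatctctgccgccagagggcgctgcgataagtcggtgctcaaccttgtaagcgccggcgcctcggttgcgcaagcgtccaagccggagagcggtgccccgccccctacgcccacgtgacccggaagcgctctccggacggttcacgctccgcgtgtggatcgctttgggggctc
Prmt5, chr14:54517421-54517720, minus strand: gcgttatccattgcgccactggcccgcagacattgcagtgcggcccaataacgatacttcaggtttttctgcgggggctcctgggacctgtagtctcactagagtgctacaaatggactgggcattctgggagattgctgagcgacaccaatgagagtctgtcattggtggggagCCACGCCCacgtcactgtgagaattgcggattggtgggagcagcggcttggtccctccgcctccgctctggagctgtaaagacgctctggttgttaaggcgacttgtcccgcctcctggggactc
Prmt7, chr8:106210804-106211103, plus strand: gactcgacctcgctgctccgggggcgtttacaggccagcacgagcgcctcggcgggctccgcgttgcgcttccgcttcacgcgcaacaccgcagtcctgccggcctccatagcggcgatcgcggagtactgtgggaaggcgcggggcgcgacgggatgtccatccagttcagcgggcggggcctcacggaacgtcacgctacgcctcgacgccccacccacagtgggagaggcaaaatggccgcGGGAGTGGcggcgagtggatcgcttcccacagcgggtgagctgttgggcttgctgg
Prmt8, chr6:127769106-127769405, minus strand: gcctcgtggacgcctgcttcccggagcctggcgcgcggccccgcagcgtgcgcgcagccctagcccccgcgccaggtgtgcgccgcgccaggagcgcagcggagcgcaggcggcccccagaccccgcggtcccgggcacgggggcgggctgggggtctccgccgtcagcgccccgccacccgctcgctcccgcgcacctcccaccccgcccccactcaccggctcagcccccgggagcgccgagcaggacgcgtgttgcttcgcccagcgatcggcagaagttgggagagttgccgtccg
The first 3 promoters hold 1 match each and that of Prmt8 holds 0. Over 51 promoters found for 41 members, 11 (21.6%) hold this motif, against 17.6% of all 32851 promoters of the same length. The E-box CACGTG is in 11.8% of member promoters against 7.15% of all, CCAAT in 43.1% against 37.4%, and the octamer ATGCAAAT in 0 of 51 against 1.74%. Motifs were searched on both strands, none of these letter strings contains another, and a match is a description of the letters only.

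Prmt5, at chr14:54507187-54517525, encodes the main symmetric dimethylarginine enzyme. It stood at 64.2 and 66.2 CPM in MEFs, 83.3 and 81.7 on day 3, 122 and 115 on day 6, 119 and 118 on day 9 and 178 and 184 in ESCs. MEF was lowest and ESC highest, with overlapping values at days 6 and 9 between them, and its change from MEF to ESC was 1.47 ± 0.04, adjusted p = 1.44e-13. Prmt7, a monomethylating enzyme (chr8:106210936-106252794), stood at 36.5 and 37.3 CPM in MEFs, 45.7 and 46.7 on day 3, 69.0 and 69.9 on day 6, 69.8 and 73.4 on day 9 and 136 and 135 in ESCs. The ESC libraries were the only ones above 100 CPM. Its change from MEF to ESC was 1.87 ± 0.04, adjusted p = 1.70e-14 and from day 9 to ESC 0.92 ± 0.04, adjusted p = 3.15e-11, the latter short of 2-fold. Prmt3, which methylates the ribosomal protein RPS2, stood at 33.1 and 35.6 CPM in MEFs, 40.0 and 38.0 on day 3, 51.4 and 51.7 on day 6, 50.9 and 48.5 on day 9 and 72.3 and 72.4 in ESCs, with MEF lowest and ESC highest (1.07 ± 0.05, adjusted p = 5.22e-11). DESeq2 gave 0.996 for that change, just short of 2-fold.

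Prmt8, a membrane-bound enzyme otherwise known from neurons (chr6:127689011-127769472), was measurable in ESCs only. It held 801 and 859 reads in the ESC libraries, 23.6 and 22.9 CPM, and 0 to 4 reads in each of the other 8. Scaled for depth, ESC held 411 times as much as day 9 (95% exact binomial interval 160 to 1510, counting error only), from 1660 against 4 reads. Against MEF the ratio was 464 (159 to 2253), from 1660 against 3 reads. The calls from MEF to ESC and from day 9 to ESC held under each alternative that was run. However, Prmt8 passed the low-count filter only through the ESC libraries, so these calls add nothing to the read counts. They are among the 16 members higher in ESCs than in MEFs and the 5 higher than at day 9.

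Prmt2, a coactivator of nuclear receptors with weak activity of its own (chr10:76207222-76237865), fell more from MEF to day 9 than any other member. It stood at 39.6 and 40.1 CPM in MEFs, 17.7 and 14.4 on day 3, 8.47 and 6.78 on day 6, 7.36 and 7.37 on day 9 and 13.2 and 14.8 in ESCs. MEF was far above all other stages, days 6 and 9 were lowest, and ESC overlapped day 3. It fell from MEF to day 3 (-1.31 ± 0.10, adjusted p = 1.75e-08) and its change from MEF to day 9 was -2.43 ± 0.11, adjusted p = 2.91e-11. The fall from day 3 to day 6 (-1.07 ± 0.11, adjusted p = 1.53e-06) was -0.92 without day 3 replicate 1, -0.93 without day 6 replicate 2 and -0.76 with limma on log2(TPM + 1). The rise of fibroblast markers from day 9 to ESC, from 123 and 132 to 4491 and 4632 CPM, runs beside the higher Prmt2 in ESCs than at day 9 (0.93 ± 0.11), and its part in that value was not tested. Prmt1, the main asymmetric dimethylarginine enzyme, stood at 188 and 193 CPM in MEFs, 204 and 189 on day 3, 305 and 313 on day 6, 311 and 311 on day 9 and 318 and 314 in ESCs. It stepped up between day 3 and day 6 (0.65 ± 0.04, adjusted p = 1.94e-09, under 2-fold) and lay between 305 and 318 CPM from then on. Carm1, which methylates H3R17 and is known as a coactivator in stem cells, stood at 151 and 147 CPM in MEFs, 126 and 124 on day 3, 146 and 142 on day 6, 149.7 and 149 on day 9 and 150.3 and 143 in ESCs. MEF, day 9 and ESC overlapped, and day 3 was lowest. Antisense annotation covers 24.4% of the windows of Carm1 and 38.9% of those of Prmt6.

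**Figure D4:**
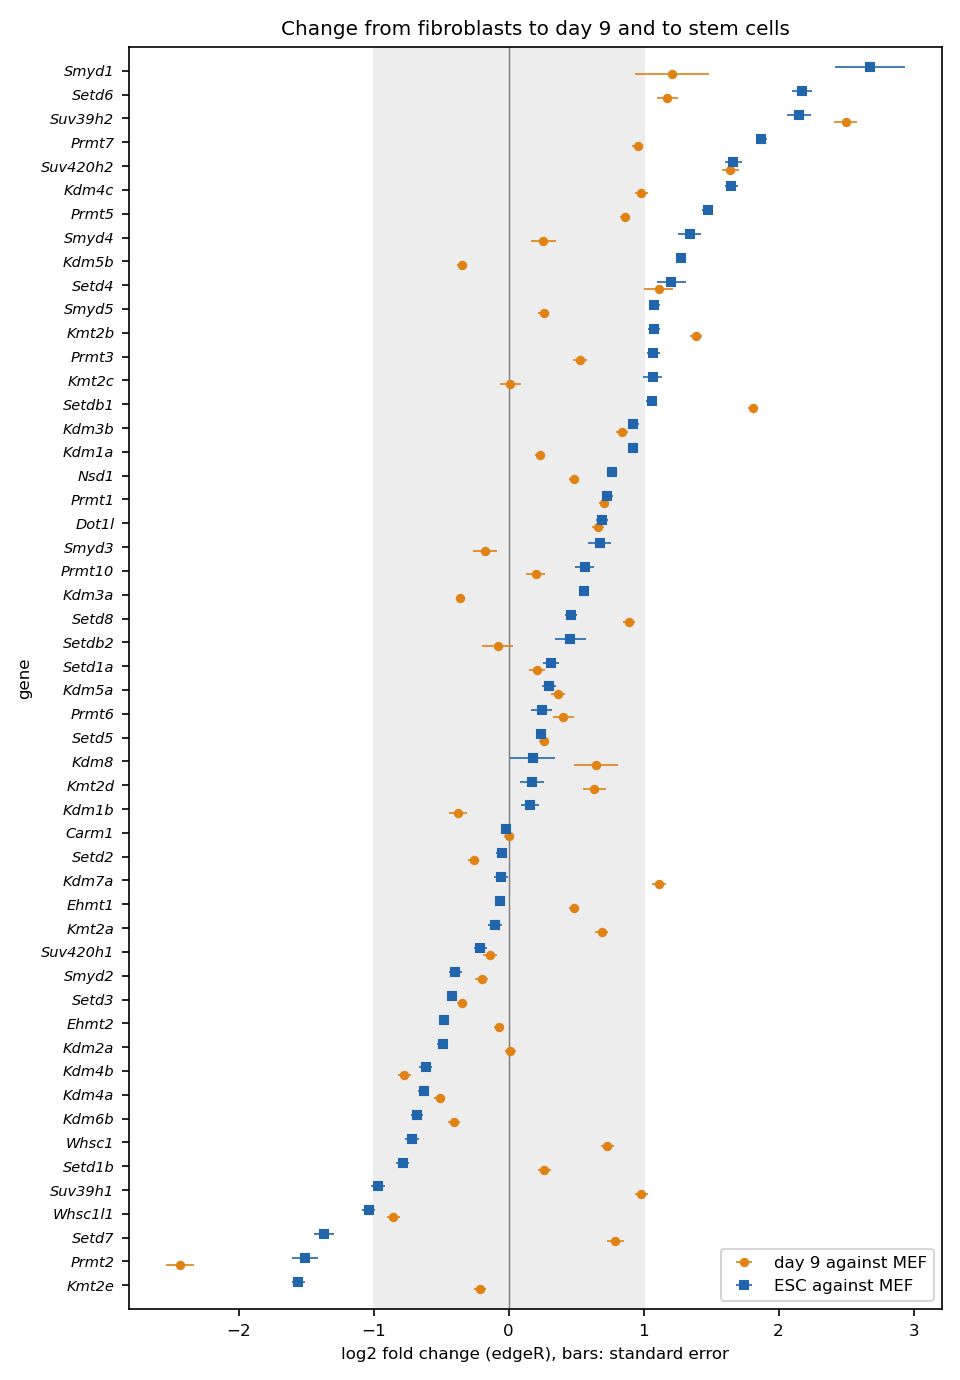
Log2 fold change against MEF at day 9 (orange circles) and in ESCs (blue squares) for 52 members, with bars for the SE and grey shading for changes under 2-fold. Prmt8 is left out because its fitted fold rests on few reads outside ESC. Setdb1 lies further right at day 9 (1.81) than in ESCs (1.06), Prmt2 lies further left at day 9 (-2.43) than in ESCs (-1.51), and Setd7 and Suv39h1 lie on opposite sides of 0.

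Of the 4 H3K4 demethylases, Kdm5b rose and the other three were not called. Kdm5b, at chr1:134560171-134635285, encodes a JmjC enzyme that removes H3K4 trimethylation. It stood at 149.6 and 145 CPM in MEFs, 91.6 and 96.4 on day 3, 121 and 123 on day 6, 113 and 118 on day 9 and 359.5 and 355 in ESCs. The ESC libraries were far above all others, and MEF lay above every day. It rose from day 9 to ESC (1.63 ± 0.04, adjusted p = 3.15e-14) and from MEF to ESC (1.28 ± 0.04, adjusted p = 2.03e-13). Its relative Kdm5a was not called and ranged from 62.1 to 100.2 CPM. Kdm1a encodes LSD1, the flavin-dependent H3K4 mono- and dimethyl demethylase of CoREST complexes. It stood at 131 and 125 CPM in MEFs, 113 and 109 on day 3, 149 and 143 on day 6, 148 and 152 on day 9 and 243 and 244 in ESCs. It was lowest at day 3 and highest in ESCs without overlap, and neither the change from day 9 (0.69 ± 0.04, adjusted p = 3.19e-10) nor that from MEF (0.92 ± 0.04, adjusted p = 7.68e-12) reached 2-fold. Kdm1b (LSD2) stayed between 13.7 and 20.5 CPM.

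Among the KDM2, KDM3 and KDM4 demethylases of H3K9 and H3K36, Kdm4c alone was called. Kdm4c, at chr4:74242497-74405860, removes H3K9 trimethylation and stood at 27.1 and 27.7 CPM in MEFs, 40.0 and 40.3 on day 3, 54.1 and 53.8 on day 6, 54.1 and 54.3 on day 9 and 89.5 and 82.6 in ESCs. MEF was lowest, days 6 and 9 were level and ESC highest, with a change from MEF to ESC of 1.65 ± 0.05, adjusted p = 4.11e-13. Its relatives were lower in ESCs than in MEFs at the adjusted p alone: Kdm4a stood at 153 and 147 CPM in MEFs and 100.2 and 94.0 CPM in ESCs (-0.63 ± 0.04), and Kdm4b at 65.9 and 63.6 and at 41.5 and 43.0 (-0.61 ± 0.05), each under 2-fold. The small difference of Kdm4a between MEF and day 3 changed sign under DESeq2. Kdm3a, which removes H3K9 dimethylation, stood at 96.9 and 97.0 CPM in MEFs, 73.5 and 71.0 on day 3, 82.1 and 81.5 on day 6, 74.9 and 76.5 on day 9 and 142 and 143 in ESCs. The days lay below MEF and ESC above it, and the change from day 9 to ESC (0.91 ± 0.03, adjusted p = 1.24e-11) was under 2-fold. Kdm3b stood at 74.3 and 71.7 CPM in MEFs and 140.3 and 137 CPM in ESCs (0.93 ± 0.04). Kdm2a, an H3K36 demethylase that binds CpG islands, stood at 133 and 129 CPM in MEFs, 145 and 155 on day 3, 155 and 152 on day 6, 130.5 and 133 on day 9 and 96.5 and 90.0 in ESCs, with ESC lowest (-0.49 ± 0.04, adjusted p = 1.19e-07).

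Kdm7a, at chr6:39136623-39206789, encodes a demethylase of H3K9 and H3K27 dimethylation and rose most of all members from MEF to day 3. It stood at 27.7 and 27.4 CPM in MEFs, 77.9 and 81.9 on day 3, 86.0 and 84.5 on day 6, 58.1 and 61.2 on day 9 and 27.1 and 26.0 in ESCs. The MEF and ESC libraries lay between 26.0 and 27.7 CPM, and every day library lay above them. It rose from MEF to day 3 (1.53 ± 0.05, adjusted p = 1.60e-12) and fell from day 9 to ESC (-1.17 ± 0.05, adjusted p = 3.55e-11), the latter -0.64 with limma on log2(TPM + 1). Kdm6b (JMJD3), which removes H3K27 trimethylation, stood at 109 and 104 CPM in MEFs, 69.3 and 72.9 on day 3, 81.3 and 82.8 on day 6, 80.2 and 81.1 on day 9 and 69.1 and 64.0 in ESCs. MEF was highest, with a change from MEF to day 3 of -0.59 ± 0.05, adjusted p = 3.53e-08, under 2-fold. Kdm8 stayed between 3.87 and 6.49 CPM and was not called.

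Kdm7a was also the member that was higher than both MEF and ESC at each day. At day 3 it was the only such member, 1 of 53, while 6.36% of all genes tested had that pattern. At day 6 there were 3, Kdm7a, Suv39h1 and Whsc1, against 7.49% of genes, and at day 9 Kdm7a alone, against 8.17%. At day 6 the changes of Kdm7a were 1.63 ± 0.05 from MEF and -1.69 ± 0.05 to ESC, those of Suv39h1 1.13 ± 0.05 and -2.10 ± 0.05, and those of Whsc1 1.20 ± 0.05 and -1.92 ± 0.05. No member was lower than both at any day, while 6.65%, 8.74% and 8.48% of genes were at days 3, 6 and 9. The day 9 result for Kdm7a was lost under DESeq2 and limma. The sum of the 4 endothelial markers was also higher at the days. It came to 4.21 and 5.21 CPM in MEFs, 132 and 129 CPM at day 3 and 133 and 128 CPM at day 6. At day 9 it was 77.2 and 78.0 CPM, and in ESCs 10.6 and 10.7 CPM. Most of the day sums was Tek, and Cdh5 was also higher at each day. Tie1 was instead highest in ESCs, at 2.68 and 2.27 CPM. Kdr at day 3, at 1.86 and 1.74 CPM, lay within its MEF values of 1.70 and 2.56 CPM. The part of these markers in the pattern of Kdm7a, Suv39h1 and Whsc1 was not tested. Both sides of this comparison use the same day libraries, which also differ from MEF and ESC in Xist and Y-linked RNA.

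Per transcript length, Prmt1 had the highest group mean of the members at every stage, with TPM levels of 109.1 and 109.9 in MEFs, 174 and 172 at day 9 and 197 and 195 in ESCs. Setd6 came to 23.3 and 25.1 TPM in MEFs and 94.6 and 103 TPM in ESCs, where it stood next after Prmt1 by TPM. In CPM, Setd6 stood at 44.3 and 42.1 in ESCs, against 318 and 314 for Prmt1. At day 3 the replicates of Setd6 lay at 33.7 and 21.6 TPM but at 14.1 and 12.8 CPM. In MEFs, Setd3 was next after Prmt1 by TPM, at 57.9 and 112.3 TPM with 122 and 120 CPM. Its higher TPM lay above those of both Prmt1 libraries. Prmt5 went from 25.9 and 26.9 TPM to 73.4 and 70.9 TPM. Ehmt2 stood at 43.5 and 44.4 TPM in MEFs and 36.1 and 33.8 TPM in ESCs. Next after Setd6 in ESCs came Prmt5, Setd3 (75.3 and 67.7 TPM) and Kdm1a (70.1 and 67.6 TPM). The libraries of Setd3 overlapped those of both neighbours. How far the split of reads among transcripts of different length shapes these TPM ranks was not tested.

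Genes that work with these enzymes were counted from lists of complexes. The COMPASS list took in subunits of the complexes of H3K4 methyltransferases, not only those shared by all of them. Of its 14 gene entries for 13 symbols, 5 were higher and 1 lower in ESCs than in MEFs. Dpy30 stood at 2.58 ± 0.07, Wdr5 at 2.14 ± 0.05, Ash2l at 2.08 ± 0.04 and Hcfc2 at -1.65 ± 0.08. Of 9 partners of H3K9 methylation, 6 were higher and 0 lower, among them Uhrf1 (2.36 ± 0.04), Trim28 (2.10 ± 0.03), the corepressor that recruits SETDB1, and the HP1 gene Cbx1 (1.91 ± 0.03). Of 6 tested subunits of LSD1 complexes, Rcor2, the stem cell CoREST, was higher (2.56 ± 0.06) and Rcor3 lower (-1.87 ± 0.07). Rcor2 first fell from MEF to day 3 (-2.46 ± 0.09). Of 4 PRMT5 partners, Wdr77 (MEP50, 1.64 ± 0.04) and Coprs (1.59 ± 0.06) were higher and 0 lower.

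Of 6 DOT1L complex genes, Mllt6 and Mllt10 were higher and 0 lower in ESCs than in MEFs, while Mllt3 rose (1.92 ± 0.06) and Aff1 fell from MEF to day 3. Among 15 related enzymes that the symbols did not take in, Jarid2 (3.79 ± 0.04), a JmjC protein of PRC2, and Jmjd1c (1.14 ± 0.06) were higher, and Mecom (-2.05 ± 0.13), Phf2 (-1.99 ± 0.06) and Ash1l (-1.34 ± 0.06) lower. For the supply of 2-oxoglutarate, 1 of 6 genes was lower, Idh1 (-1.98 ± 0.03), and 0 were higher. The median log2 change from MEF to ESC was 0.75 for the COMPASS list, 1.18 for the H3K9 partners, -0.55 for the LSD1 list, 1.27 for the PRMT5 partners, -0.40 for the DOT1L list and -0.18 for the related enzymes. It was 0.10 for the 2-oxoglutarate list and 0.10 over all genes tested, of which 46.1% were called.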

How the data were processed

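The series was part of a study of KLF4 in reprogramming, and 10 RNA libraries of 5 groups were used. Per the labels, poly(A) RNA went through a stranded kit and was read from a single end over 50 nt. The submitters' processing notes name Salmon 0.8.2 and the build mm10. The index, annotation release and strand setting are not given in the sources used here. The authors deposited, per transcript, an estimated count of reads (expected count, not normalized) and TPM. Both were summed per gene, and estimated counts were rounded. Libraries held 29585876 to 38275024 reads, and the common biological coefficient of variation was 3.75%.

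Genes were filtered with filterByExpr (minimum count 10, total 15), scaled with TMM and tested in edgeR 4.0.16 (quasi-likelihood, R 4.3.3) on all 10 libraries with a mean per group. The SE of a log2 fold change is its size divided by the root of F. The members, roles and lists were chosen with earlier results of these data known. Members called in a comparison, and 13 named whatever their values, are described by library, as are partner genes past both thresholds, at most 3 per list and direction. A further list of partner genes is not reported here. Groups and replicate numbers come from the sample titles. Chi-square per degree of freedom between replicates was 2.82 to 5.18, and each library counted as 1 sample. That spread cannot show whether the libraries came from separate animals. Alternatives were DESeq2 1.42.0, library-size scaling, other filters, fits of 2 groups, no fold minimum, limma 3.58.1 on log2 of TPM with 1 or 0.1 added, a replicate block and leaving out each library. On simulated counts for day 3 with MEF, edgeR called 90 of 100 genes changed 4-fold among 19050, and 2 unchanged genes. Of 100 genes changed 2-fold, 80 passed its adjusted p alone. DESeq2 called 85 and limma 73 of the 100 genes changed 4-fold. GENCODE M21 (GRCm38) gave coordinates for 53 of 54 members by gene ID, all but Prmt1. Promoters come from RefSeq (GRCm38.p6). Python 3.11.15, pandas 2.3.3, scipy 1.17.1 and matplotlib 3.10.9 were used.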

Additional observations from a re-analysis of the deposited data

How the results depend on the processing

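Of 37 called changes of single members, 0 changed sign under any alternative that was run, and all held without the low-count filter, in fits of only the 2 groups and with the replicate block. DESeq2 took 4 below 2-fold, library-size scaling 1, limma on log2(TPM + 1) 13 and on log2(TPM + 0.1) 9. On log2(TPM + 1) these were Suv39h2 at day 3, Prmt2 and Smyd1 at day 6, Kdm7a, Kmt2c, Kmt2e, Setd1b, Smyd4 and Whsc1 between day 9 and ESC, and Kmt2c, Setd7, Smyd4 and Whsc1l1 between MEF and ESC. Library-size scaling moved the median log2 change of all genes to 0.285 (day 3 with MEF) and 0.438 (ESC with MEF), where TMM gave 0.08 and 0.10.

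The counts moved most without the fold minimum. Day 3 then had 28 members higher and 10 lower than MEF, day 6 had 31 higher and 7 lower than day 3, and day 9 5 higher and 14 lower than day 6. ESC had 21 higher and 20 lower than day 9, and 31 higher and 15 lower than MEF. Members above MEF and ESC then numbered 13, 16 and 13 at days 3, 6 and 9, and members below both 7, 4 and 6. The shares of all genes given above for these patterns hold for the main fit with the 2-fold minimum. They were not computed for the alternatives, so these counts have no background. Library-size scaling gave 5 higher from MEF to day 3, 2 higher from day 3 to day 6, and 3, 5 and 4 members above MEF and ESC at days 3, 6 and 9. The filter of 10 CPM in 2 libraries left 0 higher from day 3 to day 6, since Smyd1 was no longer tested. With limma on log2(TPM + 1), 0 were higher and 0 lower from day 3 to day 6, 2 lower from day 9 to ESC and 2 lower from MEF to ESC. With log2(TPM + 0.1), 0 were lower from day 3 to day 6, 8 higher and 2 lower from day 9 to ESC and 2 lower from MEF to ESC. At day 9, 0 members lay above MEF and ESC under DESeq2, 0 under either limma fit, and 1 lay below both on log2(TPM + 0.1).

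Leaving out 1 library, with the lone library assumed to vary like the others, gave 0 to 2 members higher and 0 to 1 lower from day 3 to day 6: 2 higher without day 6 replicate 1, 0 higher without day 6 replicate 2, and 0 lower without day 3 replicate 1 or day 6 replicate 2. Members above MEF and ESC numbered 1 to 2 at day 3 (2 without MEF replicate 1 or day 3 replicate 1) and 1 to 2 at day 9 (2 without MEF replicate 1). Members below both numbered 0 to 1 at day 6 (1 without day 6 replicate 1) and 0 to 1 at day 9 (1 without ESC replicate 1).

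The replicate block gave the same member counts, 3 higher and 1 lower for day 3 with MEF, and 16 higher and 4 lower for ESC with MEF. Deviations of libraries with the same number had a mean correlation of 9.91e-05 across genes (-0.0205 to 0.0222 over 10 pairs). These deviations also hold counting noise, so the value cannot show whether libraries with the same number were paired. Transcripts of 23 of 51 genes with 100 reads, 49 in all, differed by more than 10 percentage points between replicates, and their shares could not be read.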
